A study of Danio rerio with 14 samples.

Results

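The 6 acidic chitinase genes of the zebrafish genome annotation, chia.1 to chia.6, were described in intestine. They were taken as every gene of the deposited count table whose zebrafish symbol starts with chia. and a digit, which gave 6 of 32520 genes. The family was chosen by the measured counts of chia.1, chia.2 and chia.3 in these same libraries, since chia.1 and chia.3 took the most counts in several of them. The levels of those 3 genes are therefore a description and are not tested as levels.

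Chitinases cut chitin, the polymer of N-acetylglucosamine that stiffens the shells of arthropods and the walls of fungi. In mammals the acidic chitinase CHIA is made in stomach and lung and works at low pH, and many fish that eat crustaceans and insects make related enzymes in the gut. Zebrafish have no stomach, so their acidic chitinases reach a gut lumen that is not strongly acidic. Fish also make chitin of their own in the gut through the chitin synthase chs1.

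Poly-A RNA from intestine was sequenced from Tubingen fish, called wild-type here, and from fish labelled Tg(Xla.Eef1a1:Cau.Asip1)iim04, called transgenic. As such names are read, iim04 is 1 allele of a transgene in which the frog Eef1a1 promoter, a broadly active one, drives goldfish Asip1, which codes for agouti. Each sample title also ends in M or H, letters that the labels do not explain. The 14 libraries were 4 wild-type M (replicates 1 to 4), 3 transgenic M (9, 10 and 11), 4 wild-type H (5 to 8) and 3 transgenic H (13, 14 and 16). The age of the fish, the number of fish per library and whether libraries came from separate fish are not stated in the labels, so p-values measure the spread between these libraries, which may be technical in part. The wild-type label names no control transgene, so effects of strain and of transgene cannot be told apart.

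Total counts were between 9847910 and 14091791 per library. Of the 35 matched genes of the brush-border list, which marks absorptive enterocytes, none to 1 was at 0 counts in 12 libraries, and the mean of the tested genes lay between 7.84 and 8.73 log2 CPM, where CPM is counts scaled to a common library total. Wild-type H replicates 6 and 7 stood apart, with means of 2.06 and 4.25 log2 CPM and with 4 and 1 of the 35 genes at 0. Both are labelled intestine like the others. The comparisons of the chitinase genes are given with and without them. Because the RNA is from whole tissue, fewer cells of a type and less RNA per cell cannot be told apart.

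The family falls into 2 sets by place and by level. In the order of the count table chia.1, chia.2 and chia.3 (ENSDARG00000100635, ENSDARG00000099185 and ENSDARG00000009612) are consecutive, and so are chia.4, chia.5 and chia.6 (ENSDARG00000008541, ENSDARG00000116259 and ENSDARG00000093193). A gene table of the GRCz12tu assembly, another build than the one in the submitters' notes, puts the first set on chromosome 11 and the second on chromosome 23. The first set held 2509037, 1640767 and 1878835 counts over all libraries, and the second 15643, 27464 and 7031. Neighbours in that order, picked after their values were seen, had few counts around the first set over all 14 libraries. Before chia.1, cntn2, a contactin cell adhesion gene, had 120 counts. After chia.3, ENSDARG00000117718 had 38 and the gene following it, ovgp1, had 99. In mammals ovgp1 is a chitinase-like oviduct glycoprotein gene. Beside the second set, ENSDARG00000056910 had 57 counts and pm20d1.2 had 10676. Near-identical stretches of paralogs can make the authors' counting split or drop reads, so the exact division of counts within each set is uncertain.

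Levels are given as FPKM, the authors' counts scaled to gene length and to the library total, which allow genes of different length to be set side by side. In wild-type M replicates 1 to 4 chia.1 had 8517, 5999, 8400 and 7084 FPKM, and in transgenic M replicates 9, 10 and 11 it had 6172, 5498 and 7001 FPKM. In wild-type H replicates 5 to 8 it had 5681, 0.330, 8.98 and 6060 FPKM, and in transgenic H replicates 13, 14 and 16 it had 3709, 6353 and 2880 FPKM. Outside wild-type H replicates 6 and 7 chia.1 was therefore high everywhere, and the 2 genotypes overlapped in M and in H.

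chia.2 had 3520, 3514, 3646 and 4046 FPKM in the wild-type M libraries and 3711, 3972 and 4807 FPKM in the transgenic M libraries. It had 5757, 0.120, 1.22 and 2481 FPKM in the wild-type H libraries and 1804, 5653 and 1379 FPKM in the transgenic H libraries. The M libraries lay close together, with group means of 3682 ± 250 FPKM (SD, n = 4) and 4163 ± 573 FPKM (SD, n = 3), and the H libraries were far apart.

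chia.3 was the most variable of the 3 abundant genes, with an SD of 1.07 in log2 CPM over the 12 libraries other than wild-type H replicates 6 and 7, against 0.60 for chia.2 and 0.40 for chia.1. It had 7340, 2582, 5657 and 5966 FPKM in the wild-type M libraries and 6453, 9452 and 3613 FPKM in the transgenic M libraries. In the wild-type H libraries it had 12790, 0.0416, 0 and 2678 FPKM, and in the transgenic H libraries 1406, 11141 and 1455 FPKM. The highest and the lowest of the 12 libraries were thus both H libraries, and each genotype held both a high and a low one.

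**Figure D1:**
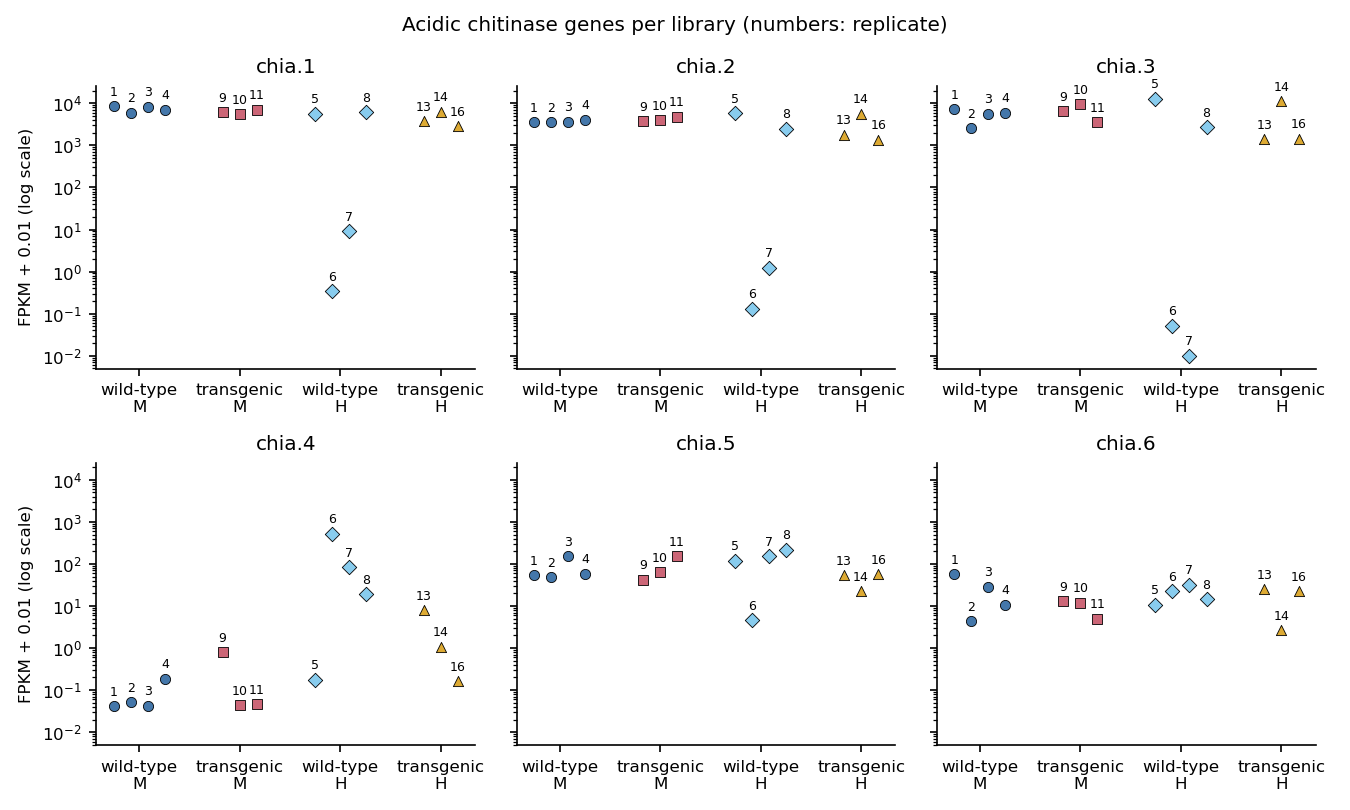
Level of each acidic chitinase gene in each library, as the authors' FPKM plus 0.01 on a log axis, with replicate numbers beside the points and 1 marker shape per group. In chia.1 to chia.3 wild-type H replicates 6 and 7 lie far below the other 12 libraries, and in chia.4 they are the highest.

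The order of levels over those 12 libraries was chia.1 at 6113 ± 1641 FPKM, chia.3 at 5878 ± 3773, chia.2 at 3691 ± 1348, chia.5 at 87.4 ± 60.1, chia.6 at 17.1 ± 14.8 and chia.4 at 2.45 ± 5.66 (SD, n = 12). Neighbours in that order within the first set did not differ beyond their spread. chia.1 was above chia.3 in 8 of the 12 libraries and chia.3 was above chia.2 in 9, although chia.1 was above chia.2 in 11. The gap between the sets was wide, since chia.2 was above chia.5 in all 12, with a ratio of mean FPKM of 42.2, and within the second set chia.5 was above chia.6 in 11. Among all genes ranked by FPKM, chia.1 held places 3 to 9 in these libraries, chia.2 places 7 to 28 and chia.3 places 1 to 36.

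A chitinase gene had more counts than any other gene in 5 of the 14 libraries. It was chia.1 in wild-type M replicates 1 and 3 and in transgenic M replicate 11, and chia.3 in replicate 10 of transgenic M and replicate 5 of wild-type H. Together chia.1, chia.2 and chia.3 took 3.35% to 5.12% of all counts in the 4 wild-type M libraries and 4.26% to 4.88% in the 3 transgenic M libraries. In H they took 6.23% in wild-type replicate 5, 3.07% in wild-type replicate 8, and 1.92%, 6.02% and 1.56% in transgenic replicates 13, 14 and 16. The 2 lowest of these libraries also held the most vitellogenin, the egg yolk precursor of female liver, at 18.2% of counts in transgenic H replicate 13 and 21.0% in replicate 16. With vitellogenin counts left out of the totals, the 3 genes took 2.34% and 1.98% in those libraries and 6.54% in transgenic H replicate 14. Replicates 13 and 16 also held 5.34% and 4.80% of counts in liver genes, against 0.407% in replicate 14. Brush-border genes took 1.73% and 1.65% there, against 3.59% in replicate 14. What part this make-up has in the chitinase shares was not tested.

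The mixture of the 3 genes was not fixed. The ratio of chia.3 to chia.1 in FPKM ranged from 0.379 to 2.25 over the 12 libraries, with a median of 0.758. Wild-type H replicate 5 had the highest ratio, followed by transgenic H replicate 14 at 1.75 and transgenic M replicate 10 at 1.72. These 3 libraries come from 3 of the 4 groups. The ratio of chia.2 to chia.1 ranged from 0.409 to 1.01. Over the 12 libraries Pearson's r of log2 CPM was 0.86 between chia.2 and chia.3, 0.71 between chia.1 and chia.2 and 0.62 between chia.1 and chia.3, given as a description over libraries that also share differences of tissue make-up.

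In wild-type H replicate 6 the 3 abundant genes together had 15 counts: 10 of chia.1, 4 of chia.2 and 1 of chia.3. In replicate 7 they had 254, 38 and 0 counts. The 0 counts of chia.3 in 10064013 allow a level of up to 0.298 CPM, a limit that covers counting error only. The next lowest library, transgenic H replicate 16, had 114056, 60284 and 45717 counts. The total counts of replicates 6 and 7, 10771787 and 10064013, were within the range of the other libraries.

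In these 2 libraries the 3 genes lay below the mean of the brush-border list, and in the 12 others above it. As log2 CPM minus the mean of the brush-border genes in the same library, chia.1 lay between 5.37 and 6.41 in the 12 other libraries, and it was -1.95 and -0.23 in replicates 6 and 7 of wild-type H. chia.2 lay between 4.48 and 5.67 in the 12 libraries against -2.97 and -2.88. chia.3 lay between 3.96 and 6.20 in the 12 libraries against -4.01 and -6.83. With 1 and 0 counts of chia.3 there, these 2 values depend on the small count added before logs were taken. The comparison is with a list mean, and it does not set the chitinases apart from each gene of the list. LCT and MEP1B of that list followed chia.3 at r of 0.995 and 0.992 over all 14 libraries. chs1, named after its values were seen, had 265.2 to 539.5 FPKM in the 12 libraries, 5.83 and 144.0 FPKM in those replicates 6 and 7. Unlike the 3 chitinases, it thus kept a clear level in replicate 7. Smooth muscle genes were at a mean of 3.33 and 5.99 log2 CPM in replicates 6 and 7, against 4.31 to 6.13 in the 12 others. What part the make-up of these 2 libraries has in the chitinase levels was not tested.

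**Figure D2:**
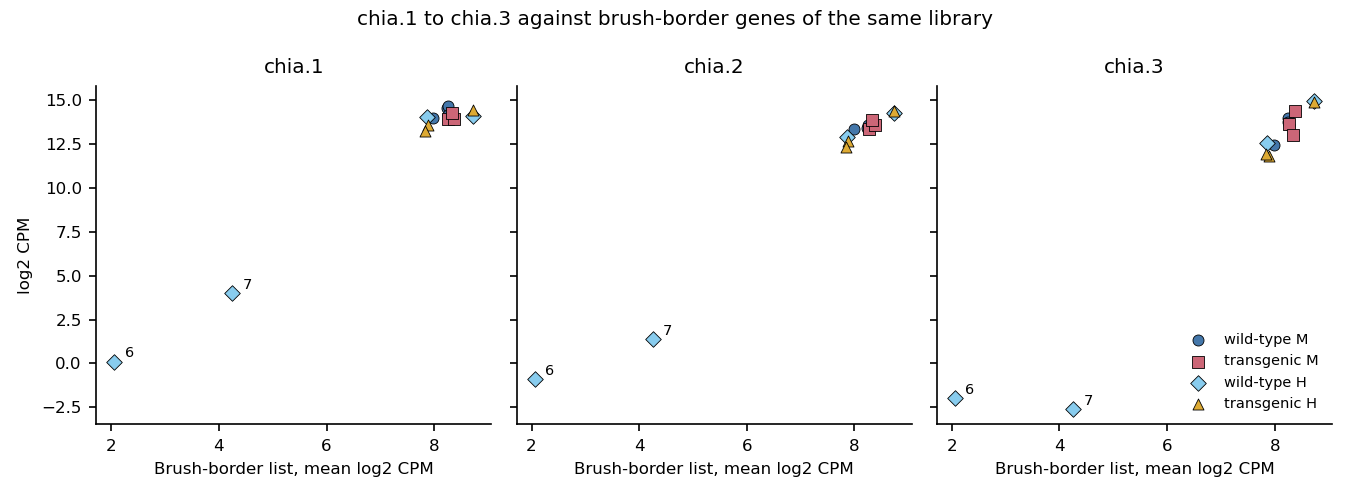
log2 CPM of chia.1, chia.2 and chia.3 against the mean log2 CPM of the brush-border list in the same library, 1 point per library, marked by group. The 12 other libraries lie together at brush-border means of 7.84 to 8.73, and wild-type H replicates 6 and 7 (numbered) lie at 2.06 and 4.25 with chitinase values at most 4.02.

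chia.4 had another pattern. It had 1, 1, 1 and 4 counts in wild-type M replicates 1 to 4 and 22, 1 and 1 counts in transgenic M replicates 9, 10 and 11. In wild-type H replicates 5 to 8 it had 4, 12866, 1898 and 577 counts, or 0.169, 521.8, 82.4 and 18.99 FPKM. In transgenic H replicates 13, 14 and 16 it had 233, 29 and 5 counts, or 7.93, 1.07 and 0.155 FPKM. It was thus near 0 in most libraries and high in the very 2 libraries where chia.1 to chia.3 were nearly absent. In wild-type H replicate 6 chia.4 made up 95.01% of the summed FPKM of the family and ranked 117 among all genes, while chia.1 ranked 16781.

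The 4 libraries with the most chia.4 were the 4 with the most ovary and oocyte transcripts, in the same order. The 27 genes of that list, egg coat and oocyte genes, summed to 294590, 49644 and 16397 counts in wild-type H replicates 6, 7 and 8 and to 5832 counts in transgenic H replicate 13, or 2.73%, 0.493%, 0.124% and 0.0454% of counts. In each of these 4 libraries all 27 genes were detected. The count of chia.4 per ovary count was 0.0437, 0.0382, 0.0352 and 0.0400, while the ovary counts themselves spanned a wide range. In the other 10 libraries the list summed to 13 to 97 counts and chia.4 to 1 to 29. Transgenic M replicate 9, with 22 chia.4 and 24 ovary counts, and transgenic H replicate 14, with 29 and 50, held more chia.4 than that proportion gives. The ovary list therefore moved with chia.4, and its part in the level of chia.4 was not tested.

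**Figure D3:**
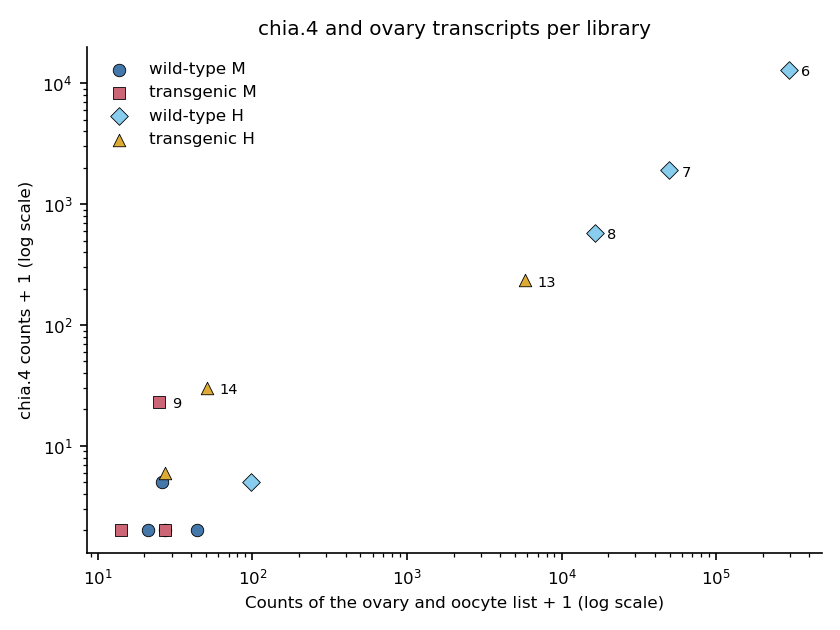
Counts of chia.4 against the summed counts of the 27 ovary and oocyte genes, both plus 1 on log axes, 1 point per library and 1 marker shape per group. Wild-type H replicates 6, 7 and 8 and transgenic H replicate 13 form a rising line, and the other 10 libraries lie at or under 97 ovary counts.

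chia.5 was present throughout at a moderate level. It had 54.4, 48.0, 152.1 and 59 FPKM in the wild-type M libraries, 42.2, 64.6 and 155.1 FPKM in the transgenic M libraries, and 54.1, 22.7 and 56.9 FPKM in the transgenic H libraries. In wild-type H replicates 5 to 8 it had 119.3, 4.63, 154.5 and 220.5 FPKM. Replicate 7 therefore kept a high chia.5 level while chia.1 to chia.3 were nearly absent there, and replicate 6 was the lowest of the 14. In replicate 7 chia.5 made up 55.4% of the summed FPKM of the family, chia.4 29.5% and chia.6 11.4%.

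chia.6 was low and varied widely within the groups. It had 56.4, 4.39, 28.9 and 10.8 FPKM in the wild-type M libraries and 13.1, 11.9 and 4.96 FPKM in the transgenic M libraries. It had 10.7, 22.3, 31.8 and 14.4 FPKM in the wild-type H libraries and 25.1, 2.64 and 22.5 FPKM in the transgenic H libraries. Wild-type H replicates 6 and 7 were within the range of the others for this gene. Within the second set Pearson's r of log2 CPM over the 12 libraries was 0.23 between chia.5 and chia.6, 0.09 between chia.4 and chia.5 and 0.04 between chia.4 and chia.6.

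**Figure D4:**
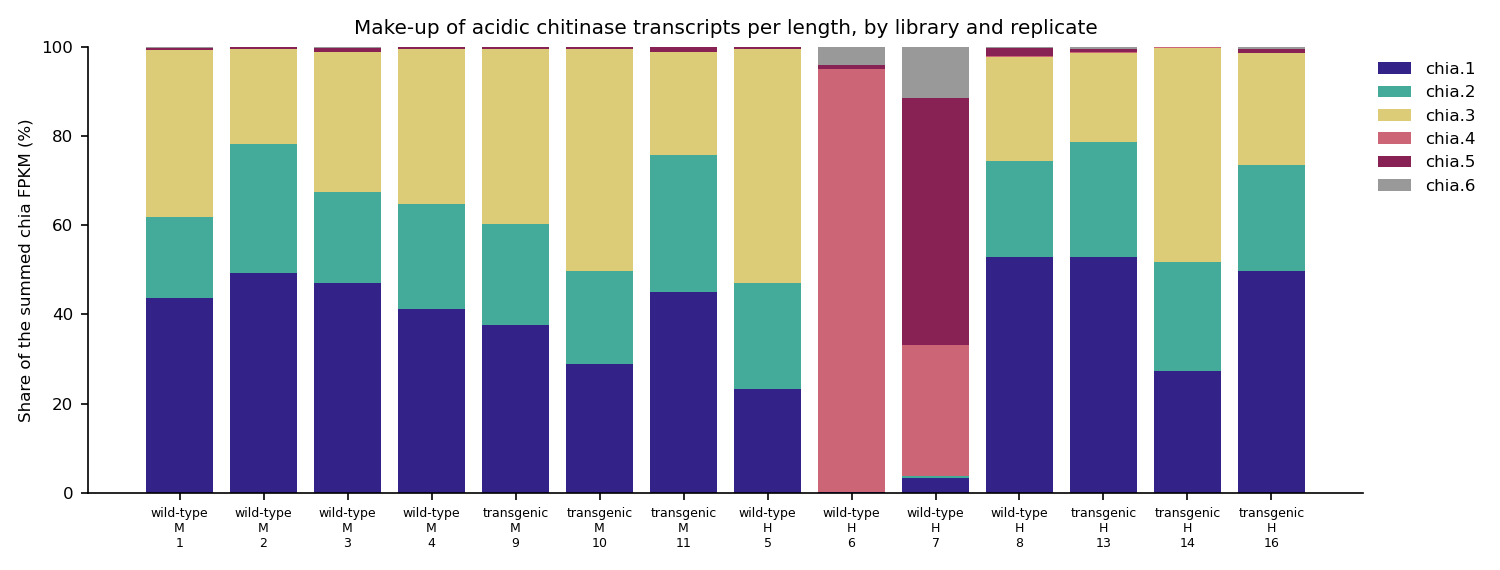
Share of each gene in the summed FPKM of the 6 genes, in percent, stacked to 100% for each library. chia.1, chia.2 and chia.3 fill nearly the whole bar in 12 libraries, chia.4 fills 95.01% in wild-type H replicate 6, and chia.5 fills 55.4% in wild-type H replicate 7.

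The question of the design, whether the agouti transgene goes with a change in intestinal gene expression, was tested on counts with edgeR's quasi-likelihood test and Benjamini-Hochberg adjustment over all 18619 tested genes. All 6 chitinase genes passed the filter on low counts, chia.4 through its few high libraries, most of them H, so its fitted differences are a description. Leaving chia.4 aside, none of the 6 differed between genotypes averaged over M and H. None of them had an unadjusted p under 0.05 by edgeR, and none was called by DESeq2 or by limma-voom. Of all tested genes edgeR called 4.21%, DESeq2 9.52% and limma-voom 3.77%, and 19.1% had an unadjusted p under 0.05 by edgeR. Log2 fold changes, transgenic over wild-type, were 0.23 for chia.1 (SE 1.2, adjusted p = 0.932 by edgeR), 0.43 for chia.2 (SE 1.3, adjusted p = 0.871) and 0.34 for chia.3 (SE 1.55, adjusted p = 0.920). They were -0.49 for chia.5 and -0.59 for chia.6, with adjusted p of 0.680 and 0.571 by edgeR, and -1.70 for chia.4, given as a description. The genotypes overlapped for all 6 genes over the 14 libraries, within M and within H, where 3.72%, 19.2% and 13.7% of all tested genes did not overlap. The median of the 6 was -0.13 beside -0.11 over all tested genes, but it counts chia.4 and is a description only. Apart from chia.4, the values of chia.1, chia.2 and chia.3 were positive and those of chia.5 and chia.6 negative.

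Without wild-type H replicates 6 and 7 the intervals of chia.1, chia.2 and chia.3 became much narrower and still held 0, while that of chia.6 became wider. chia.1 was at -0.26 with an interval of 2 SE from -0.80 to 0.28, chia.2 at -0.06 from -0.83 to 0.72 and chia.3 at -0.15 from -1.41 to 1.12, so the direction of all 3 turned. chia.4 turned to 0.28 (SE 1.16), and chia.5 and chia.6 stayed negative at -0.79 (SE 0.45) and -0.39 (SE 0.66). Leaving chia.4 aside, adjusted p by edgeR was between 0.342 and 0.957. None of these members was called, where 7.88% of 18697 tested genes were. None of them reached an unadjusted p under 0.05, where 22% of the tested genes did. These intervals bound a change of chia.1 more closely than one of chia.3, and they do not show that the genotypes are alike.

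**Figure D5:**
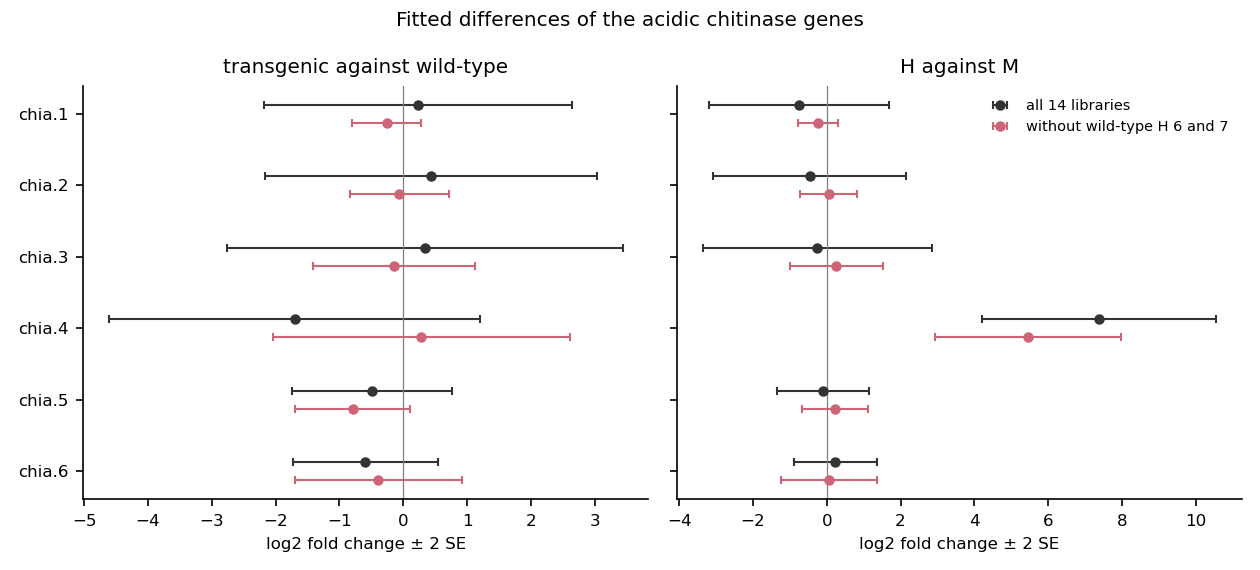
Fitted log2 fold changes of the 6 genes from edgeR with bars of 2 SE, for transgenic against wild-type averaged over M and H (left) and for H against M averaged over genotypes (right), with all 14 libraries (dark) and without wild-type H replicates 6 and 7 (red). The bars of chia.1, chia.2 and chia.3 shorten when those 2 libraries are left out, and the values of chia.4, which entered the fit through its high libraries, are a description.

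Within the M libraries, leaving chia.4 aside, none of the 6 genes was called by edgeR, DESeq2 or limma-voom. None of them had an unadjusted p under 0.05 by edgeR, against 7.97% of all tested genes. Of all tested genes these tools called 0.956%, 3.18% and 1.02%. Log2 fold changes there ran from -1.41 for chia.6 (SE 0.82, adjusted p = 0.837 by edgeR) to 1.93 for chia.4 (SE 2.07). With M libraries fitted alone chia.4 did not pass the filter on low counts, so its value within M is a description. The chia.4 value rests on the 22 counts of transgenic M replicate 9, and without that library it was -0.82. Estimated without wild-type H replicates 6 and 7, whose spread the M groups share in the fit, again none of these members was called in M, against 3.86% of tested genes.

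Within the H libraries, leaving chia.4 aside, edgeR called none of the 6, against 1.15% of all tested genes. Apart from chia.4 none had an unadjusted p under 0.05 by edgeR, where 24.7% of all tested genes had one. chia.4 was lower in transgenic H, at -5.33 on the log2 scale (SE 2.01) by edgeR, -5.41 by DESeq2 and -3.77 by limma-voom. Because it passed the filter through libraries in which it is high, these values are a description and carry no test. Of the other members DESeq2 and limma-voom called none within H, where they called 11.5% and 1.37% of all tested genes. The chia.4 value ran from -7.47 to -2.69 with 1 library left out and from -5.68 to -1.38 under other settings. Wild-type H spanned 0.422 to 1168 CPM and transgenic H 0.424 to 21.3 CPM, so the genotypes overlapped, and the 3 wild-type libraries with most chia.4 were those with most ovary transcripts. Leaving out replicates 6 and 7 put chia.4 at -1.38 (SE 1.52) by edgeR.

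With those 2 libraries left out 1 of the 6 genes had H genotypes that did not overlap, against 28.5% of all tested genes in this split of 2 and 3 libraries. It was chia.5, at 245.9 and 413.4 CPM in wild-type replicates 5 and 8 against 119.3, 52.6 and 128.0 CPM in transgenic replicates 13, 14 and 16. The log2 fold change was -1.69 (SE 0.69), with an unadjusted p of 0.0319 and an adjusted p of 0.272 by edgeR, and it was not called. In that fit 0 of the 6 genes and 1.99% of all tested genes were called within H. Wild-type H replicate 6 had 8.54 CPM, below every transgenic library, and with all 7 H libraries the value was -1.09 (SE 0.91, adjusted p = 0.449 by edgeR).

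The genotype effect was not shown to differ between M and H for any of the 6 genes. edgeR called 0% of the 18619 tested genes for that difference, with 1285 (6.9%) at an unadjusted p under 0.05, while DESeq2 called 24, or 0.129%, and limma-voom 0. Apart from chia.4 none of the 6 had an unadjusted p under 0.05 there by edgeR. For chia.4, which passed the filter through its high libraries, the fitted log2 difference is a description. It was -7.26 (SE 2.77), and -3.32 (SE 2.5) without wild-type H replicates 6 and 7. In H against M averaged over genotypes edgeR also called 0%, with 1449 genes at an unadjusted p under 0.05. DESeq2 called 344 genes, 1.85% of those tested, and limma-voom 0.

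Between the letters the fitted log2 difference of chia.4 was 7.38, higher in H, and 5.45 without wild-type H replicates 6 and 7. Because the gene passed the filter through libraries in which it is high, these values carry no test here. The ovary and oocyte list moved with it, at 2.73% to 0.0454% of counts in the 4 H libraries with the most chia.4, and its part in the difference was not tested. In H against M the other 5 genes lay between -0.75 for chia.1 (SE 1.22) and 0.24 for chia.6 (SE 0.56), with adjusted p between 0.858 and 0.968 by edgeR. They lay between -0.24 for chia.1 (SE 0.27) and 0.25 for chia.3 (SE 0.63) with those libraries left out.

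Set against the brush-border list of the same library, the 6 genes were compared between genotypes with a two-sided exact permutation test within M and within H, which cannot give a p under 0.000816. The transgenic minus wild-type difference in log2 units was 1.41 for chia.1, 1.90 for chia.2 and 2.41 for chia.3, with exact p of 0.416, 0.353 and 0.340. For these genes wild-type H replicates 6 and 7 lay far below all other libraries. The p of these genes therefore depends mostly on which genotype those libraries are assigned to, and it cannot show whether the genotypes differ otherwise. The difference was -1.38 for chia.5 and -1.86 for chia.6, with exact p of 0.0743 and 0.168. For chia.4 it was -2.78, given as a description. Leaving chia.4 aside, no p of these tests was under 0.05. Without wild-type H replicates 6 and 7 the differences of chia.1, chia.2, chia.3 and chia.4 turned to -0.37, -0.15, -0.27 and 0.71.

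The genes most like each chitinase were found by Pearson's r of log2 CPM, as a description over libraries that share their tissue make-up. Over all 14 libraries r was over 0.9 for 1208 of 17645 genes with chia.1, 973 with chia.2 and 634 with chia.3. Among the closest to chia.1 were PHYH, an enzyme of peroxisomal fatty acid oxidation, with SMPDL3B, AOC1 and SLC4A4 (ENSDARG00000013730), at r of 0.994 to 0.995. The closest to chia.2 was PIPOX, a peroxisomal oxidase, at 0.997, followed by AOC1, si:dkey-239i20.2, si:ch211-161h7.8 and wu:fa56d06. The closest to chia.3 were LCT (ENSDARG00000060671), the lactase gene, at 0.995, then slc22a7b.3, wu:fa56d06, RBP2 (ENSDARG00000070038), a cellular retinol-binding protein gene, and MEP1B (ENSDARG00000037533), a brush-border protease gene. Symbols in capitals are the human-style names of zebrafish genes in the reference table.

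Over the 12 libraries without those 2, far fewer genes reached that likeness: 2 with chia.1, 30 with chia.2 and 21 with chia.3. chia.2 was closest to TREH, the trehalase of the brush border, at r = 0.985, then to NHERF4 (ENSDARG00000040568), RNF128, LPAR6 (ENSDARG00000069441) and LARGE2. chia.3 was closest to CD36, a fatty acid receptor gene, at 0.949 and to the peptide transporter gene SLC15A1 (ENSDARG00000100315) at 0.944, followed by ccdc65, ACY1 (ENSDARG00000038475) and NFE2L2. chia.1 was closest to si:ch1073-440b2.1 at 0.924 and aqp8a.2, an aquaporin gene, at 0.911, then to CDK4, man2c1 and ms4a17a.16. The 3 abundant genes thus shared none of their 5 closest genes in this set of libraries, out of 17645 compared. Whether they share genes further down was not examined, and r between chia.2 and chia.3 themselves was 0.86. ccdc65 had a mean of only 0.615 CPM, so its r rests on very low counts.

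chia.4 was closest over all 14 libraries to CPD (ENSDARG00000053877), a carboxypeptidase gene, at r = 0.979, then to S100A1, to the egg coat gene zp3d.1, to h2af1al and to the egg coat gene zp2l1. Over the 12 libraries CPD, S100A1 and zp3d.1 were again among the 5 closest, with LIN28A (ENSDARG00000016999) and si:dkeyp-114g9.1, at r of 0.933 to 0.942. These 5 genes had means of only 0.165 to 1.81 CPM over the 12 libraries, and chia.4 had a median of 0.398 CPM there. The r values of chia.4 over the 12 therefore rest on very low counts in most libraries. chia.5 and chia.6 had few like genes. For chia.5 traf3ip2l led over all 14 libraries at 0.928, before SLIT1 (ENSDARG00000044954), pabpc1b, LOXL3 (ENSDARG00000076306) and smpd2b. Over the 12 it was NOTCH1 (ENSDARG00000103554) at 0.897, before CRTAC1 (ENSDARG00000059826), ADGRL4, GXYLT2 and the pancreatic elastase gene ela2. For chia.6 zmp:0000000609 led over all 14 at 0.903, before CDH2, then another gene with only a clone name, then zgc:174259 and cbln9. Over the 12 it was MYH10 at 0.917, a non-muscle myosin gene, before degs1, zmp:0000000609, tcf3a and CDH2.

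Other genes around chitin and amino sugars were followed as lists, tested for genotype averaged over M and H. Of the 11 genes that break down chitin fragments and N-acetylglucosamine, 0 were called by edgeR and 3 had an unadjusted p under 0.05 where 19.1% of all tested genes had one, with a median log2 fold change of 0.30 beside -0.11 over all tested genes. DESeq2 called 1 of them and limma-voom 0, against 9.52% and 3.77% of all tested genes, where edgeR called 4.21%. NAGK, the kinase that recovers N-acetylglucosamine, had 0.89 (SE 0.30, adjusted p = 0.136 by edgeR). In the fit that leaves out wild-type H replicates 6 and 7 NAGK rose by 0.63 (SE 0.17, adjusted p = 0.0476 by edgeR). It was the 1 gene of the 11 called there, close to the share of 7.88% over all 18697 tested genes, and the median was 0.08 beside 0.00.

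Of the 9 listed genes of chitin synthesis and amino sugar metabolism, 0 were called by edgeR with all libraries and 1 had an unadjusted p under 0.05. DESeq2 and limma-voom called 1 each. Over all tested genes edgeR called 4.21%, DESeq2 9.52% and limma-voom 3.77%, and 19.1% had an unadjusted p under 0.05 by edgeR. UAP1L1, related to the enzyme that makes UDP-N-acetylglucosamine, had 1.01 (SE 0.27, adjusted p = 0.0595 by edgeR). Without wild-type H replicates 6 and 7 UAP1L1 rose by 0.76 (SE 0.15, adjusted p = 0.0127 by edgeR), in a fit that called 7.88% of 18697 tested genes. NANP had 0.51 (adjusted p = 0.539 by edgeR). It was near the floor, at means of 0.603 CPM in wild-type and 1.01 CPM in transgenic libraries. Transgenic H replicate 14 had 32 NANP counts, against 3 to 12 elsewhere. chs1 was at 0.43 (SE 0.62, adjusted p = 0.723) and, without those libraries, at 0.02 (SE 0.21, adjusted p = 0.976). The list's median was 0.16, and 0.02 without those libraries.

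Of the 11 tested genes of chitin sensing and type 2 immunity, 0 were called by edgeR and 2 had an unadjusted p under 0.05, close to the share of 19.1% over all tested genes. DESeq2 called 1 and limma-voom 0, against 9.52% and 3.77% of all tested genes. TLR2, a receptor of microbial wall parts, was at 2.1 (SE 0.62, adjusted p = 0.0840 by edgeR) and il13ra2, a decoy receptor of an interleukin in mammals, at -1.51 (adjusted p = 0.261). With replicates 6 and 7 of wild-type H left out they were at 1.93 (adjusted p = 0.104 by edgeR) and -0.13 (adjusted p = 0.923). TLR2 was near the floor, at means of 0.493 CPM in wild-type and 2.13 CPM in transgenic libraries. Of 9 luminal digestion genes 1 was called by edgeR, against 4.21% of all tested genes. This was lygl2, a goose-type lysozyme gene, which fell in log2 terms by 2.79, with an SE of 0.63 and an adjusted p of 0.0258 by edgeR. It was low throughout, at 1.66 ± 0.567 CPM in wild-type (SD, n = 8) and 0.235 ± 0.281 CPM in transgenic libraries (SD, n = 6), and at -3.03 without wild-type H replicates 6 and 7. Of the 20 tested intestinal transcription factors 0 were called by edgeR, DESeq2 or limma-voom, against 4.21%, 9.52% and 3.77% of all tested genes. Of these factors 1 had an unadjusted p under 0.05 by edgeR, against 19.1% of all tested genes. The smallest p were those of pdx1 at 1.15 (adjusted p = 0.216 by edgeR) and gata4 at 0.85 (adjusted p = 0.299). pdx1 was near the floor, at means of 0.716 CPM in wild-type and 1.65 CPM in transgenic libraries. In the fit that leaves out wild-type H replicates 6 and 7 cdx1a, a homeobox gene of intestinal identity, fell in log2 terms by 0.50. Its SE was 0.13 and its adjusted p 0.0436 by edgeR, where 7.88% of all tested genes were called.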

How the data were processed

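Poly-A RNA of zebrafish intestine was sequenced in 14 libraries. STAR 2.7.3a, featureCounts 1.6.3, FastQC and edgeR are the tools named in the submitters' processing notes, which give GRCz11, GRCm38.p6 and mm10 as builds with no role; whether counting used strand is not stated there. The authors deposited unnormalized whole-number counts of reads per gene. Their deposited FPKM columns equal these counts over gene length and column total. Symbols came from the supplied reference table (29201 of 32520 identifiers), and 279 of 320 names in 15 gene lists were matched.

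Counts were tested with edgeR 4.0.16 in R 4.3.3 (limma 3.58.1, DESeq2 1.42.0): filterByExpr on the 4 groups, TMM scaling, 1 mean per group, glmQLFit and glmQLFTest, Benjamini-Hochberg adjustment over all 18619 genes tested, threshold 0.05. SE is the absolute log2 fold change divided by the square root of F and restates the test. log2 CPM used a prior count of 2. The fit was tested on simulated counts with known changes. The members and lists were chosen with earlier results of these data known. The text names all 6 chitinases, the 5 genes most like each, and from each list up to 4 called members or the 2 with the smallest p. Some genes that this rule names are not reported here. Alternatives were another scaling, DESeq2, limma-voom, no low-count filter, totals without tissue-specific genes, each library left out, wild-type H replicates 6 and 7 left out, and M or H libraries fitted alone. For the relative values a prior count of 0.5 and the lipid-absorbing enterocyte list were tried, and FPKM was recomputed on TMM-scaled totals. The fit of H libraries alone without replicates 6 and 7 was chosen after seeing the data.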

Additional observations from a re-analysis of the deposited data

Results flagged for a closer look

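In 12 checks of the 6 genes in the 2 groups of 4 libraries, 3 samples stood farther from the rest of their group than the 95% limit of Dixon's test. Chance gives about 1 in 20 for normally distributed values, a rate that does not hold for very low counts. chia.4 in wild-type H replicate 6 was at 1168 CPM, with the other 3 wild-type H libraries at 0.422 to 120.4 CPM. Because chia.4 passed the filter on low counts through such high libraries, this flag is a description and carries no test. The summed ovary and oocyte list was also highest in that library, and its part in the value was not tested. chia.4 in wild-type M replicate 4 was at 0.373 CPM, which is 4 counts, with the others at 0.0723 to 0.0928 CPM, which is 1 count each. The others are thus tied in counts, and this flag carries no weight. chia.5 in wild-type M replicate 3 was at 314.0 CPM, with the others at 86.4 to 102.3 CPM, and transgenic M replicate 11 was at a like level of 296.2 CPM.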

How the results depend on the processing

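No paired analysis was possible because the 4 groups share 0 replicate numbers. Counts of called genes moved with the test and with wild-type H replicates 6 and 7. For genotype averaged over M and H, edgeR called 784 genes, DESeq2 1772 and edgeR without those 2 libraries 1474, and leaving out 1 library gave 483 to 1435. Within M the count of 178 became 593 by DESeq2, 722 without the 2 libraries, 742 with M libraries alone, and 63 to 486 with 1 left out. Within H 214 became 2144 by DESeq2, 372 without the 2 libraries, 11 with H libraries alone, 79 with H alone without the 2, and 77 to 1034 with 1 left out. For the interaction 0 became 24 by DESeq2, and for H against M 0 became 344 by DESeq2 and 0 to 173 with 1 left out.

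Without wild-type H replicates 6 and 7 the sign turned for genotype averaged (chia.1 -0.26, chia.2 -0.059, chia.3 -0.15, chia.4 0.28), genotype within H (chia.1 -0.21, chia.2 -0.26, chia.3 -0.52, and with H alone -0.24, -0.30 and -0.55), the interaction (chia.2 -0.41, chia.3 -0.74), H against M (chia.2 0.052, chia.3 0.25, chia.5 0.23) and the values relative to brush-border genes (chia.1 -0.37, chia.2 -0.15, chia.3 -0.27, chia.4 0.71). chia.6 within H turned to -0.24 with library totals alone and -0.25 with limma-voom, and chia.3 in the interaction to -0.0012 with library totals alone. With 1 library left out, 22 member values turned sign, over these ranges: averaged chia.2 -0.014 to 1.13 and chia.3 -0.51 to 1.44; within M chia.2 -0.020 to 0.28, chia.3 -0.18 to 0.48, chia.4 -0.82 to 2.73 and chia.5 -0.67 to 0.74; within H chia.2 -0.17 to 2.11, chia.3 -1.24 to 2.67 and chia.6 -0.12 to 0.78; interaction chia.2 -0.31 to 1.97 and chia.3 -1.45 to 2.46; H against M chia.5 -0.36 to 0.30. The cause was not tested. The other member values, 397 with 1 library left out and 207 under other settings, kept their direction and side of the threshold. Set apart from these are some chia.4 values that involve H, whose side of the threshold carries no test here. Of the values with no fit across genes, the remaining 84 and 38 kept theirs. Counts of 1 to 29 limit chia.4 outside the 4 libraries with the most ovary transcripts, and 2 to 4 libraries per group limit every test within a letter.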
